A study of Homo sapiens with 12 samples.

Results

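In A375 cells, an established human melanoma line, 178 of 65535 transcript clusters read at least 2-fold lower in both total and polysomal RNA when silvestrol was added to interferon-gamma (IFNg). A transcript cluster gathers the array's probes for 1 transcribed locus, and its value is an intensity, analysed here as log2. The members were chosen on these values. A cluster entered when its mean over the 12 arrays was at least 7, when the silvestrol mean lay at least 1 below the IFNg mean in total RNA and in polysomal RNA with both silvestrol arrays below both IFNg arrays, and when IFNg and DMSO differed by no more than 1 in total RNA. Of the 65535 clusters, 7808 had a mean of at least 7 and are called bright here. The condition on total RNA left 292 of them, or 285 without overlap of arrays. The condition on polysomal RNA left 204, or 203 without overlap, and the window on the IFNg change left 178, which is 2.28% of the bright clusters and 0.272% of all.

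The study measured 6 groups of 2 arrays each. Cells received DMSO for 2 h, IFNg for 24 h, or IFNg for 24 h together with silvestrol for 2 h, and each treatment was measured as total RNA and as polysome-associated RNA. No vehicle is named for the IFNg cells, and DMSO and IFNg were given for unlike times. Silvestrol was never given without IFNg, so the silvestrol difference is always one within IFNg-treated cells. The labels do not call the replicates separate cultures, and p-values then measure only the spread between these samples.

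Silvestrol is a plant compound that locks the RNA helicase eIF4A onto RNA. eIF4A unwinds the leaders of mRNAs so that ribosomes can load, and mRNAs differ in how much they need it. An mRNA bound by several ribosomes sediments with the polysomes, so polysomal RNA follows both the amount of an mRNA and its ribosome loading, while total RNA follows the amount alone. Proteins that are secreted, inserted into the plasma membrane or kept in the endoplasmic reticulum and Golgi are made by ribosomes docked on the endoplasmic reticulum, where they are folded and glycosylated. In bulk RNA, fewer cells of a kind and less RNA per cell cannot be told apart.

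The members were named and sorted by role. A table that pairs the clusters with gene symbols gave 1 symbol for 154 members, several for 8 and none for 16. RefSeq listed 148 of the 154, and all 148 were protein coding, against 4048 of the 4409 bright clusters that RefSeq listed (91.8%). Roles were assigned from textbook knowledge after the names were seen, so their counts carry no test. By this reading, 40 members code for receptors, adhesion or guidance molecules, 26 for transporters, channels or pumps, 15 for enzymes of glycan and glycosaminoglycan synthesis, 10 for proteins of endoplasmic reticulum folding, translocation and stress sensing, 10 for lipid enzymes and their regulators and 6 for secreted proteins or secretory peptidases. A further 17 code for proteins of the cytosol, nucleus or mitochondria, and 30 named members were not assigned. No share of these roles among all bright clusters was counted.

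Across the members, the silvestrol difference in total RNA had a median of -1.36 on the log2 scale and ranged from -2.95 to -1.02. The median corresponds to a 2.57-fold lower intensity. In polysomal RNA the median was -1.65, a 3.13-fold lower intensity, with a range from -3.83 to -1.003. The same medians over all bright clusters were 0.03 and 0.24. With each array centred on the median of its bright clusters, the members' medians were -1.43 and -1.92. These differences were used to choose the members and are a description with no test.

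**Figure D1:**
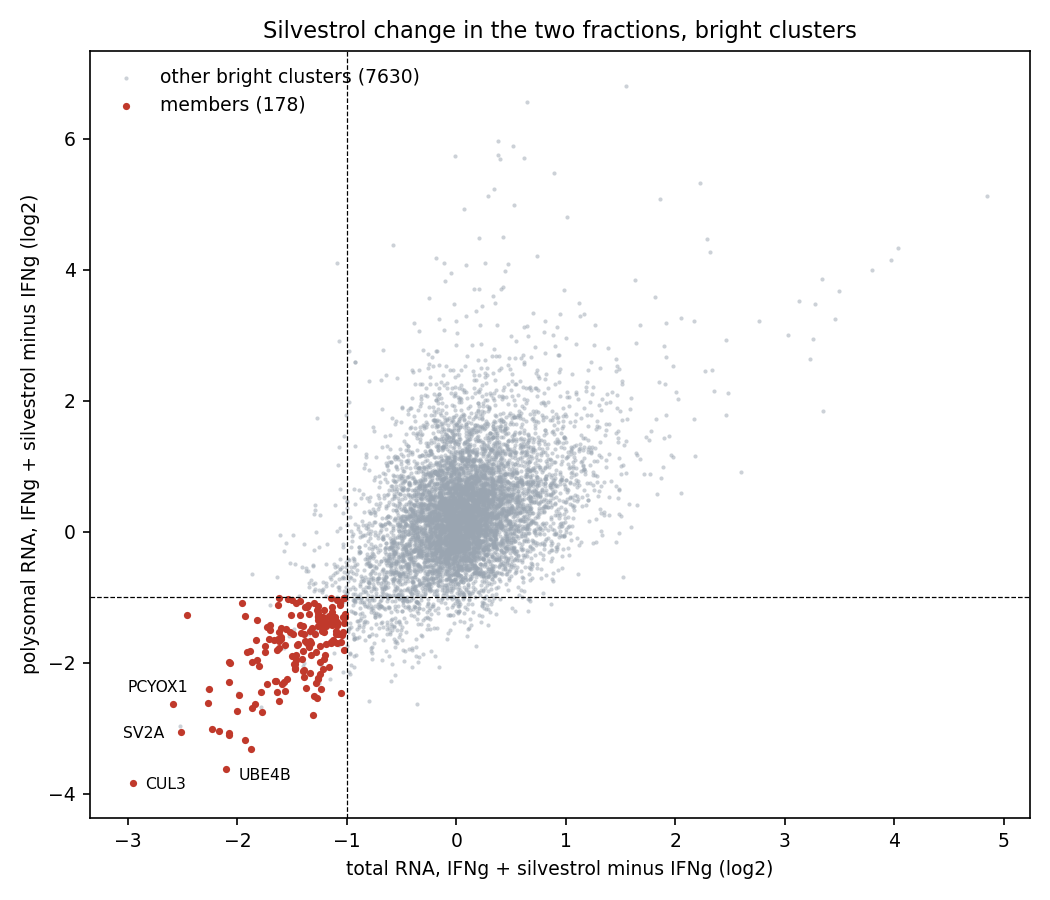
Each point is a bright transcript cluster, placed by its silvestrol difference (IFNg with silvestrol minus IFNg, log2 of the intensities, means of 2 arrays) in total RNA on the horizontal axis and in polysomal RNA on the vertical axis; red points are the 178 members, grey points the other 7630 bright clusters, and the dashed lines mark -1. The members fill the lower left corner down to -2.95 in total RNA and -3.83 in polysomal RNA because the rule selects that corner.

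The bound of -1 cut through a continuous range of values. PAM, an enzyme that amidates secreted peptides, lay just inside with differences of -1.027 in total RNA and -1.003 in polysomal RNA. GPX8, a peroxidase of the endoplasmic reticulum, lay just inside with -1.024 and -1.009, and SLC7A2, a transporter of cationic amino acids, with -1.617 and -1.012. CD46, a complement regulator of the cell surface, lay just outside with -0.996 and -1.024. PCDHB9, a protocadherin, lay just outside with -0.999 and -1.746.

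The levels with DMSO are given beside these as a description. In total RNA, a mean with silvestrol below that with DMSO is fixed by the rule, through the bound on the silvestrol difference and the window on the IFNg difference, and the members' median there was -1.44. In polysomal RNA the DMSO arrays entered the rule only through the mean over all arrays, while the silvestrol arrays are those that chose the members. The median of silvestrol minus DMSO in polysomal RNA was -1.78, beside -0.23 over the bright clusters. Both polysomal silvestrol arrays lay below both polysomal DMSO arrays for 170 of the 178 members, and for 38.8% of bright clusters.

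A second reading held back 1 replicate number. The rule applied to the replicate 1 arrays alone chose 165 clusters, 128 of them members. On the replicate 2 arrays these clusters had a median silvestrol difference of -1.27 in total RNA and -1.68 in polysomal RNA, and 164 of 165 were below 0 in both, against 24.7% of bright clusters. Chosen on replicate 2, 154 clusters, 120 of them members, had medians of -1.28 and -1.55 on the replicate 1 arrays, and 150 were below 0 in both (97.4%), against 22.6% of bright clusters. The bound on brightness was set on the arrays of the replicate used for choosing. The arrays of both replicates also chose the members, so for the members this reading is a description and not a separate test. Since the labels do not call the replicates separate cultures, whether these differences recur in other cultures was not tested.

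The levels of the members on the 12 arrays are given next, where the rule places the silvestrol arrays below the IFNg arrays. Relative to its own mean over the arrays, the median member lay at -1.04 and -0.96 on the silvestrol arrays of total RNA and at -1.14 and -1.17 on those of polysomal RNA. It lay at 0.53 and 0.38 on the IFNg arrays of total RNA and at 0.52 and 0.60 on those of polysomal RNA. On the DMSO arrays the replicates differed more, with 0.21 and 0.80 in total RNA and 0.36 and 1.10 in polysomal RNA. DMSO replicate 2 was above replicate 1 for 147 of 178 members in total RNA and for 146 in polysomal RNA, beside 42.0% and 62.1% of bright clusters. Below, the median over members of polysomal minus total RNA with DMSO is therefore also given without each polysomal DMSO array. The other values that rest on DMSO means, such as those of single roles, were not computed in that way.

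**Figure D2:**
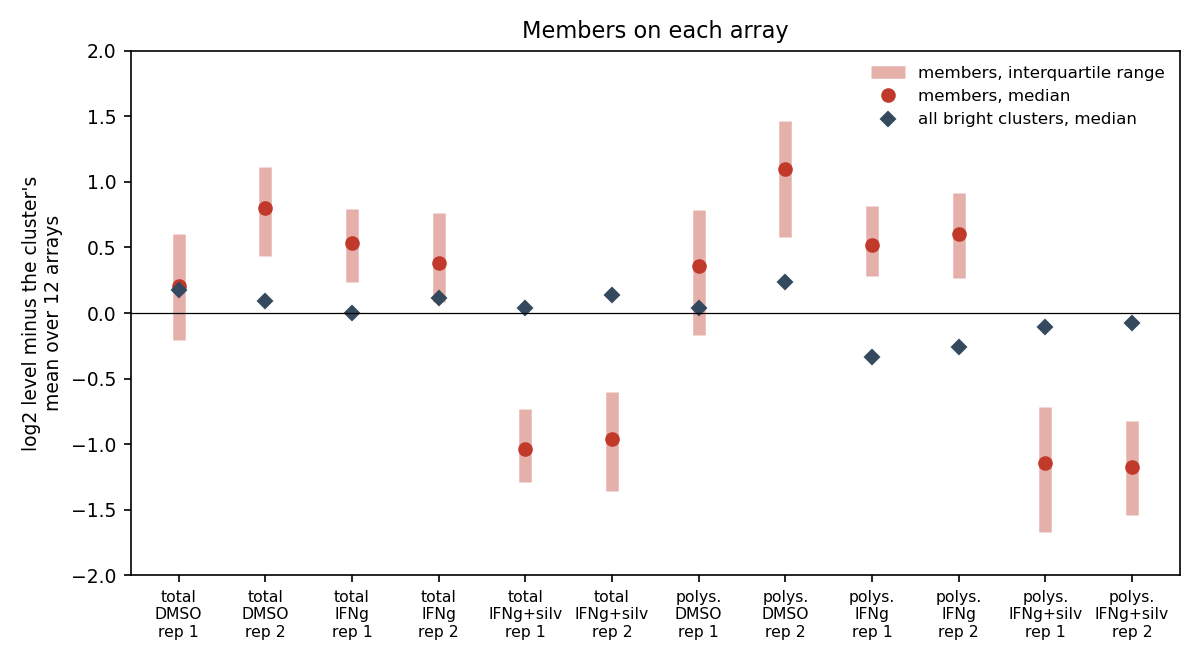
Each red point is the median over the 178 members of the log2 level minus the cluster's own mean over the 12 arrays, the red bars are the interquartile ranges of the members, and the diamonds are the medians of the 7808 bright clusters; each position on the horizontal axis is 1 array. The members lie near -1 on the 4 silvestrol arrays, while the bright clusters stay between -0.34 and 0.24 on every array.

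The 10 members with the lowest mean of both silvestrol differences were CUL3, PCYOX1, ADAM23 and FASTKD1 on chromosome 2, UBE4B and SV2A on chromosome 1, CLCN3, ABCE1 and TMEM184C on chromosome 4, and ROBO1 on chromosome 3. CUL3 is the scaffold of a family of ubiquitin ligases that take their substrates through BTB-domain adaptors. In total RNA the CUL3 cluster read 13.13 and 13.09 with DMSO, 12.79 and 12.75 with IFNg, and 10.22 and 9.41 with silvestrol added. In polysomal RNA it read 12.41 and 12.78 with DMSO, 12.62 and 11.98 with IFNg, and 8.54 and 8.40 with silvestrol. The silvestrol arrays lay far below all others in both fractions, by a mean difference of -2.95 in total RNA (7.75-fold) and -3.83 in polysomal RNA (14.3-fold) from IFNg.

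UBE4B, an enzyme that lengthens ubiquitin chains, read 12.26 and 12.07 with IFNg and 10.22 and 9.89 with silvestrol in total RNA. Its polysomal values were 12.70 and 13.01 with IFNg and 9.31 and 9.15 with silvestrol. The differences of UBE4B were -2.11 in total RNA and -3.63 in polysomal RNA, and the second minus the first, -1.52, was the lowest among the members. ABCE1, the ATPase that splits ribosomes for recycling, read 13.68 and 14.52 with IFNg and 11.996 and 12.46 with silvestrol in total RNA. Its polysomal values were 13.52 and 13.66 with IFNg and 9.91 and 10.65 with silvestrol. The rule requires of every member that silvestrol and IFNg arrays do not overlap. The mean differences of ABCE1 were -1.87 and -3.31.

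SV2A, a glycoprotein of secretory vesicles best known from synapses, read 10.86 and 11.62 with IFNg and 8.85 and 8.61 with silvestrol in total RNA, and 11.95 and 12.16 against 9.27 and 8.73 in polysomal RNA. CLCN3, a chloride-proton exchanger of endosomes, read 14.38 and 13.67 against 11.79 and 11.80 in total RNA, and 13.99 and 14.33 against 11.24 and 11.06 in polysomal RNA. As the rule requires, every silvestrol value of both genes lay below every IFNg value of the same fraction. The replicates were closer to each other than to the other group. PCYOX1, a lysosomal enzyme that degrades prenylated cysteine, had nearly equal differences in the fractions, -2.59 and -2.63. For ADAM23, a surface protein of the metalloprotease family without protease activity, they were -2.17 and -3.05, and for FASTKD1, a mitochondrial RNA-binding protein, -1.93 and -3.18. TMEM184C had -2.08 and -3.07.

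**Figure D3:**
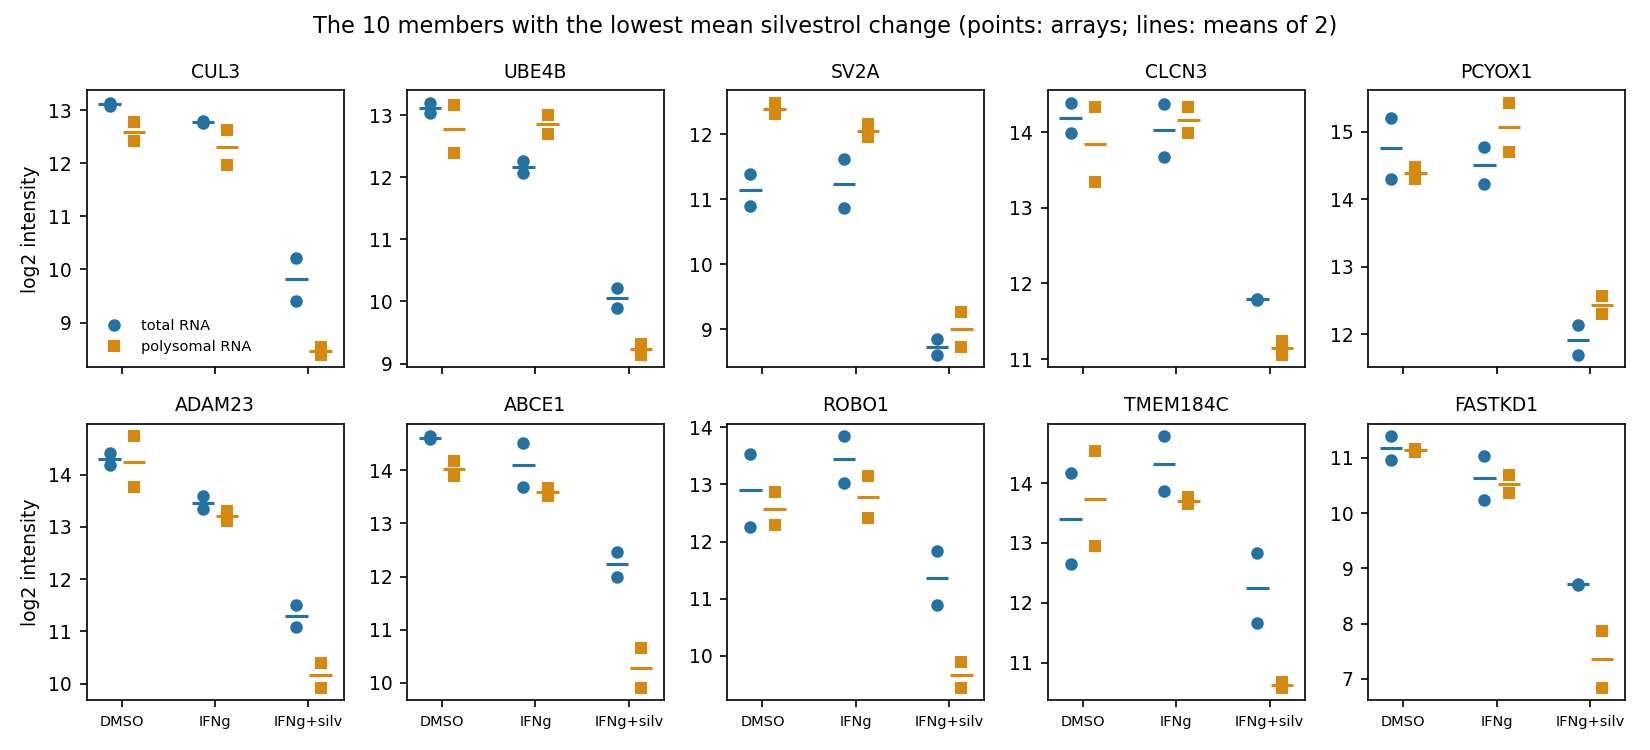
Log2 intensity of the 10 members with the lowest mean silvestrol difference, 1 panel a gene, with DMSO, IFNg and IFNg with silvestrol on the horizontal axis; circles are total RNA arrays, squares polysomal RNA arrays, and short lines the means of 2 arrays. In all 10 panels the silvestrol points lie below the IFNg points of the same fraction, as the rule requires. They also lie below the DMSO points of that fraction, except for 1 total RNA point of TMEM184C (12.84 with silvestrol, 12.65 with DMSO).

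Receptors, adhesion and guidance molecules were the role with the most members, with median differences of -1.40 in total RNA and -1.67 in polysomal RNA over 40 members. ROBO1, the receptor for SLIT guidance proteins, read 13.03 and 13.84 with IFNg and 10.89 and 11.84 with silvestrol in total RNA. Its polysomal values were 13.14 and 12.40 with IFNg and 9.45 and 9.89 with silvestrol, a difference of -3.10. VLDLR, a lipoprotein and reelin receptor, read 9.08 and 8.70 with IFNg and 6.63 and 6.62 with silvestrol in total RNA, and 9.10 and 10.18 against 7.24 and 7.24 in polysomal RNA. The mean differences of VLDLR were -2.26 and -2.40.

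Wnt receptors of the Frizzled family were among the members. This family and the others counted below were picked after their values were seen, so nothing particular is claimed from their counts. Frizzled proteins bind Wnt ligands at the cell surface, and VANGL1 is a partner of theirs in planar cell polarity. FZD1 read 12.49 and 12.15 with IFNg and 10.61 and 10.38 with silvestrol in total RNA, and 12.47 and 12.21 against 10.62 and 10.76 in polysomal RNA. FZD7 had differences of -1.26 and -1.30, and FZD3 of -1.14 and -1.14. These 3 were members among 5 bright Frizzled clusters, beside 2.996% of the bright clusters with 1 symbol. The medians of the 5 were -1.14 and -1.65. Where most clusters of a family are members, as here, the rule alone puts both medians at -1 or less. The others were FZD5, with -0.37 and -1.76, and FZD6, with -0.94 and -1.90. VANGL1 had -1.54 and -2.25, and SMO, the transducer of Hedgehog signals, had -1.22 and -1.39.

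Semaphorins, the ligands of plexins and neuropilins in cell guidance, gave 3 members of 8 bright clusters, beside 2.996% of the bright clusters with 1 symbol. The family medians were -0.93 and -1.30. SEMA6A, a membrane-bound semaphorin, read 11.24 and 11.42 with IFNg and 9.21 and 9.30 with silvestrol in total RNA, and 11.60 and 10.38 against 9.001 and 8.39 in polysomal RNA. The secreted SEMA3E had differences of -1.83 and -1.96 and SEMA3A of -1.19 and -1.44, and their co-receptor NRP2 had -1.17 and -1.28. SEMA5A met both silvestrol conditions with -1.53 and -1.60 but differed by -1.40 between IFNg and DMSO in total RNA, outside the window. SEMA4C lay at -0.54 and 0.13, so the family did not move as one.

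Adhesion molecules included ALCAM, a partner of CD6 (-1.48 and -2.07), NRCAM, a neuronal cell adhesion molecule (-1.62 and -1.77), and LSAMP, an adhesion molecule anchored by a lipid (-1.73 and -2.33). Of 15 bright clusters of the beta protocadherins, neighbouring genes with similar sequences, 3 were members, PCDHB5, PCDHB7 and PCDHB16. The share over bright clusters with 1 symbol was 2.996%. The median of the 15 was -0.74 in total RNA and -1.24 in polysomal RNA. Probes of such similar genes may share signal, so their values are uncertain as separate measurements. Receptor tyrosine kinases and their regulators were represented by PDGFRA, with -1.51 and -1.26, and LRIG1, an inhibitor of growth factor receptors, with -1.27 and -2.54. SDC1, a heparan sulfate proteoglycan of the cell surface, had -1.45 and -1.71, and TGFBR3, the co-receptor betaglycan, had -1.70 and -1.42.

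Receptor phosphatases and growth factor receptors were also found. PTPRG and PTPRF, receptor tyrosine phosphatases, had -1.64 and -2.44, and -1.73 and -1.45. BMPR1B, a receptor of bone morphogenetic proteins, had -1.40 and -1.56, and LPAR3, a receptor for lysophosphatidic acid, had -1.39 and -1.15. ANTXR1 and ANTXR2, the cell surface receptors of anthrax toxin, had -1.46 and -1.87, and -1.60 and -1.47. ITGB8, an integrin subunit, had -1.11 and -1.30, ADAM9, a membrane metalloprotease, -1.13 and -1.66, and EFNA5, an ephrin, -1.36 and -1.11. PROM1, a protein of membrane protrusions also known as CD133, read 12.82 and 11.91 with IFNg and 10.84 and 10.11 with silvestrol in total RNA. In polysomal RNA it read 12.37 and 12.04 against 10.28 and 10.47. Of the 40 members of this role, 30 had a lower difference in polysomal than in total RNA, beside 138 of all 178 members and 40.2% of bright clusters.

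The 26 transporters, channels and pumps had median differences of -1.35 in total RNA and -1.59 in polysomal RNA. SLC2A1, the main glucose transporter of proliferating cells, read 13.73 and 12.88 with IFNg and 12.20 and 11.55 with silvestrol in total RNA. In polysomal RNA SLC2A1 read 14.46 and 13.79 with IFNg and 12.97 and 12.44 with silvestrol. Its mean differences were -1.43 and -1.42. XPR1, the phosphate exporter, had -1.84 and -2.63, and ATP2B4, a calcium pump of the plasma membrane, had -1.27 and -2.24. SLC12A2, the sodium-potassium-chloride cotransporter, had -1.21 and -1.95. ABCG2, a drug efflux pump, had -1.06 and -1.56, and ATP1B1, a subunit of the sodium pump, had -1.27 and -1.44. SLC39A8, an importer of zinc and manganese, had -1.49 and -1.56, SLC6A6, the taurine transporter, -1.09 and -1.42, and SLC29A1, a nucleoside transporter, -1.15 and -1.40. ATP2C1, the calcium and manganese pump of the Golgi, had -1.13 and -1.68, and ATP6V1B2, a subunit of the proton pump that acidifies lysosomes, had -1.14 and -1.41. SLC38A9, an arginine sensor of the lysosome, had -1.16 and -2.06.

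Among bright clusters with symbols of the SLC transporter families, 16 of 96 were members (16.7%), against 154 of the 5140 bright clusters with 1 symbol (2.996%). The 96 clusters ranged from -1.70 to 1.06 in total RNA with a median of -0.50, and from -2.30 to 1.24 in polysomal RNA with a median of -0.43. Of the 68 bright TMEM clusters, a symbol for transmembrane proteins of little known function, 8 were members (11.8%), with family medians of -0.42 and -0.13. The families were named after the values were seen, so nothing particular is claimed from these shares.

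The endoplasmic reticulum group held 10 members with medians of -1.30 in total RNA and -1.50 in polysomal RNA. Cells sense unfolded protein in this compartment through the kinases PERK and IRE1 and the membrane-bound transcription factor ATF6, and the genes of both PERK (EIF2AK3) and ATF6 were members. EIF2AK3 read 11.74 and 11.83 with IFNg and 10.55 and 10.49 with silvestrol in total RNA, and 10.87 and 11.80 against 8.86 and 9.33 in polysomal RNA. ATF6 read 14.50 and 14.23 against 13.16 and 13.11 in total RNA, and 14.47 and 14.77 against 13.10 and 13.43 in polysomal RNA. The differences were -1.27 and -2.24 for EIF2AK3 and -1.23 and -1.36 for ATF6. EIF2AK3 lay higher with IFNg than with DMSO in total RNA, where it read 10.96 and 11.34 with DMSO, so its silvestrol values were closer to DMSO than to IFNg.

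The members that code for folding and translocation factors are described next. DNAJC10, a disulfide reductase that helps clear misfolded proteins, read 15.76 and 16.06 with IFNg and 13.91 and 14.78 with silvestrol in total RNA, and 15.34 and 15.81 against 13.07 and 13.47 in polysomal RNA. DNAJB11, a co-chaperone of BiP, had -1.33 and -1.88, and CALU, a calcium-binding protein, had -1.38 and -1.66. MANF, a secreted stress-induced factor, had -1.43 and -1.27. SEC63, part of the translocation channel, had -1.13 and -1.65, and EMC3, a subunit of the membrane protein insertase, had -1.11 and -1.34. CREB3L2, a membrane-bound transcription factor of secretory capacity, had the reverse order of fractions, with -1.93 and -1.28. Against DMSO, the silvestrol differences in total RNA were -0.91 for DNAJC10, -0.68 for DNAJB11, -0.53 for MANF, -0.73 for SEC63 and -1.02 for CREB3L2. Those were smaller in size than the differences from IFNg, as for EIF2AK3, while that of CALU was larger, at -1.57. In polysomal RNA, MANF lay only -0.40 from DMSO.

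Of the list of 11 unfolded protein and integrated stress response genes, 3 were found among the clusters and none was a member. SESN2 had -0.58 in total RNA and 0.09 in polysomal RNA, DNAJB9 -0.62 and -0.27, and ASNS -0.31 and 0.23. None of the 3 passed limma's test for silvestrol in either fraction, where 0.0412% of all clusters were called higher and 0.0153% lower in total RNA and 1.09% and 0.301% in polysomal RNA, and none had an unadjusted p below 0.05.

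Because ATF6 was a member, the promoters of members were searched for the sequences that unfolded protein response factors bind. RefSeq promoters (GRCh38.p14, 250 bases before to 50 after the start) were at hand for 121 of the 148 protein-coding members. The ER stress element ERSE (CCAAT and CCACG with 9 bases of any kind between them) and its variant ERSE-II (ATTGG and CCACG with 1 base between them), read on both strands, occurred in 0 of the 121, beside 0.149% and 0.00% of 3350 bright protein-coding genes and 0.081% and 0.055% of all 27305 promoters. The core TGACGTGG, also read on both strands, occurred in 2 members (1.65%), beside 0.776% of the bright genes and 0.795% of all promoters. The 2 are shown here with 30 bases on each side and the core in capitals, on the strand of the gene. The stretch of DNAJC10 lies at chr2:182716102-182716169 on the plus strand, with the core on the opposite strand 125 bases before the start, and that of LSAMP at chr3:116445606-116445673 on the minus strand, with the core 156 bases before the start.
DNAJC10: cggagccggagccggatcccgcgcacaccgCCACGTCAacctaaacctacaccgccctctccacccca
LSAMP: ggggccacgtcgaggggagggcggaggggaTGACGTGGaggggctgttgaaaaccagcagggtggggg
A match of letters is a description and not a binding site.

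Repeats of GGC in mRNA leaders have been linked to dependence on eIF4A in other cells, so the first 50 transcribed bases were searched, on the transcribed strand, for 4 copies of GGC in a row. They occurred in 1 of 121 members (0.826%), beside 1.58% of bright protein-coding genes and 0.678% of all. That member was VANGL1, at chr1:115641970-115641999 on the plus strand, shown with the repeat in capitals.
VANGL1: agtgcagcGGCGGCGGCGGCggggctctgc
The median GC content of the 300 promoter bases was 65.3% for members, 64.7% for bright protein-coding genes and 58.3% for all promoters. Leaders run on beyond the window, which shows only their first bases.

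The 15 members of glycan and glycosaminoglycan synthesis had medians of -1.26 in total RNA and -1.63 in polysomal RNA. Heparan sulfate chains are started and lengthened by enzymes of the EXT and EXTL families and then sulfated by NDST and HS2ST enzymes. HS2ST1 read 12.56 and 11.81 with IFNg and 11.03 and 10.90 with silvestrol in total RNA, and 11.90 and 12.003 against 9.94 and 9.77 in polysomal RNA. EXTL3 had differences of -1.48 and -2.10, EXTL2 of -1.09 and -1.70, and NDST1 of -1.27 and -1.29. Of 6 bright clusters of these families, 4 were members, beside 2.996% of the bright clusters with 1 symbol. The family medians were -1.24 and -1.90, and with most clusters members the rule puts both at -1 or less. EXT1, the main polymerase subunit, had -1.79 and -2.68 and was left out only because its total RNA was 1.04 higher with IFNg than with DMSO. EXTL1 lay at -0.29 and -0.07.

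Enzymes of protein glycosylation among the members included MGAT5, which branches N-glycans (-1.39 and -2.22), MAN1A2, which trims them (-1.24 and -2.41), ST6GAL1, which caps them with sialic acid (-1.21 and -1.53), and GALNT11 and GALNT13, which start O-glycans (-1.26 and -1.24, and -1.63 and -1.63). NUS1, a subunit of the enzyme that makes dolichol, had -1.30 and -1.09. EOGT, which adds GlcNAc to extracellular domains, had -1.91 and -1.83. All of these enzymes act in the endoplasmic reticulum or the Golgi.

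The 10 lipid members had medians of -1.35 and -1.64. ELOVL6, which lengthens saturated fatty acids, read 13.42 and 13.52 with IFNg and 11.004 and 11.40 with silvestrol in total RNA. In polysomal RNA ELOVL6 read 12.56 and 11.78 with IFNg and 9.16 and 9.95 with silvestrol. Its differences were -2.27 and -2.62. SQLE, squalene epoxidase of the cholesterol pathway, had -1.28 and -2.31, and INSIG2, which holds the sterol sensor in the endoplasmic reticulum, had -1.42 and -1.54. Of 7 bright ELOVL and CERS clusters, the fatty acid elongases and ceramide synthases, 4 were members, ELOVL2, ELOVL6, CERS2 and CERS6. The share over bright clusters with 1 symbol was 2.996%. The medians of the 7 were -1.03 and -1.45, and with most clusters members the rule puts both at -1 or less. The other 3 were ELOVL4 with -0.87 and -1.32, ELOVL5 with -0.40 and -0.49, and ELOVL7 with -0.53 and -0.71.

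The 6 secreted proteins and secretory peptidases had medians of -1.43 and -1.68. They were CRISPLD1 (-1.62 and -2.59), SERPINI1, a protease inhibitor known as neuroserpin (-1.75 and -1.84), FAM3C, a secreted factor (-1.25 and -2.18), CPVL, a carboxypeptidase, EPDR1 (-1.23 and -1.52) and PAM. The 30 named members without an assigned role ranged from -2.59 to -1.02 in total RNA and from -3.07 to -1.02 in polysomal RNA, with medians of -1.32 and -1.50. They included LAPTM4A and LAPTM4B, membrane proteins of lysosomes (-1.06 and -1.12, and -1.59 and -2.32), ATG9A, the membrane protein of autophagosome formation (-1.13 and -1.31), and GOLIM4, a Golgi membrane protein (-1.45 and -1.72).

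The 17 members outside the secretory pathway had medians of -1.38 in total RNA and -1.80 in polysomal RNA. POLR2B, the second largest subunit of RNA polymerase II, read 15.55 and 16.17 with IFNg and 13.98 and 13.78 with silvestrol in total RNA. In polysomal RNA POLR2B read 16.18 and 15.39 with IFNg and 13.12 and 13.46 with silvestrol. Its differences were -1.98 and -2.49. PARP1, a sensor of DNA breaks, had -1.64 and -1.80, and SKP2, a substrate receptor of an SCF ubiquitin ligase, had -1.06 and -1.07. DLD, a subunit of mitochondrial dehydrogenase complexes, had -1.36 and -1.70, TFB2M, a mitochondrial transcription factor, had -1.57 and -2.43, and LETM1, an ion exchanger of the inner mitochondrial membrane, had -1.14 and -1.70.

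Some further families, picked after the values were seen, were counted for reference, where 2.996% of the bright clusters with 1 symbol were members. None of the 158 bright clusters with ribosomal protein symbols was a member, and their medians were -0.00 in total RNA and 0.82 in polysomal RNA. Families were matched by symbol, so pseudogene symbols can be among them, as SLC31A1P1 is in the SLC family. Clusters that share probe sequence may not be separate measurements, and the 158 are not a count of separate ribosomal protein genes. The 40 mitochondrial ribosomal protein clusters had medians of 0.091 and 1.001, and the 54 ZNF clusters, zinc finger proteins, had 0.68 and 0.69, with 0 members in each. The 13 gene lists for naming, chosen with earlier results of these data known, covered 101 genes in 104 clusters, 95 of them bright, and none was a member. In the immediate early list, 4 of 9 clusters rose by limma's test in total RNA and 7 of 9 in polysomal RNA, with bright medians of 3.26 and 3.47. Among 9 clusters of growth factor receptors and ligands, none passed the test in either fraction. With no adjustment 2 were lower in total RNA and 1 in polysomal RNA, and 0 were higher in either. The share of all clusters without adjustment is not given here. The medians of the bright clusters in this list were -0.22 and -0.53. MET, the receptor for hepatocyte growth factor, had -0.77 and -1.16, while TGFA had 0.97 and 1.62 and VEGFA 0.59 and 0.44.

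**Figure D4:**
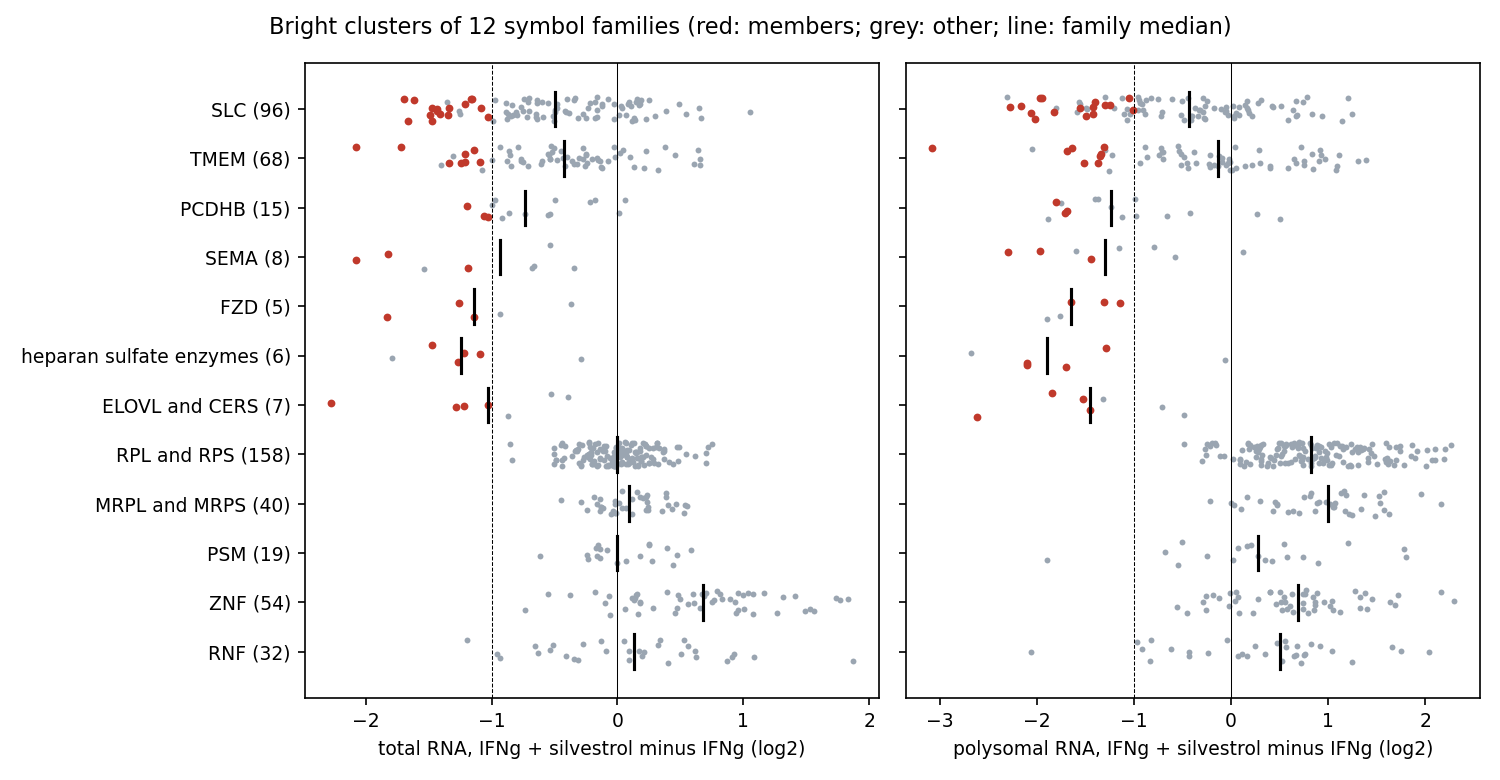
Silvestrol difference (IFNg with silvestrol minus IFNg, log2) of the bright clusters in 12 gene symbol families, total RNA on the left and polysomal RNA on the right; each point is a cluster, red if a member, the number of clusters stands in brackets, the black line is the family median and the dashed line marks -1. The Frizzled, heparan sulfate and ELOVL and CERS families have medians below -1 in both panels. Most clusters of these families are members, which the rule puts at -1 or less, so medians at or below -1 follow from the rule. The families with ribosomal protein symbols have medians of -0.00 and 0.09 in total RNA and 0.82 and 1.001 in polysomal RNA.

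The polysomal difference was lower than the total difference for 138 of 178 members (77.5%), beside 40.2% of bright clusters and 48.4% of all clusters. The median of polysomal minus total difference was -0.26, beside 0.17 over bright clusters. These are the arrays that chose the members, so both values are a description and the difference between fractions was not tested here. ENPP5 (-2.46 in total RNA and -1.27 in polysomal RNA) and CPVL (-1.96 and -1.09) were the members with the largest gap in the other direction.

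How the members lay between total and polysomal RNA without IFNg or silvestrol was the measure least touched by the rule, since polysomal DMSO arrays entered it only through the mean over all arrays and total DMSO arrays through that mean and the window. The median of polysomal minus total RNA with DMSO was 0.04 over the members and -0.02 over bright clusters. Of 178 members, 1 passed limma's test as higher in polysomal RNA (Benjamini-Hochberg over 65535 clusters), where 0.448% of bright and 0.061% of all clusters did. None passed as lower, where 0.397% of bright and 0.0565% of all clusters did. With no adjustment 36 members were higher (20.2%, bright 15.0%) and 4 lower (2.25%, bright 9.44%). After adjustment the share called as higher was near that of the bright clusters, but it rests on 1 call. With no adjustment the share of lower members was below that of the bright clusters.

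The called member was SLC39A1, a zinc importer of the plasma membrane. With DMSO it read 10.04 and 10.24 in total RNA and 11.64 and 12.44 in polysomal RNA, so both polysomal arrays were above both total arrays. The difference was 1.90 with a standard error of 0.32 (limma adjusted p = 0.0485). The call was lost without any 1 of the 12 arrays, with quantile normalization and with centring on bright clusters. LRIG1 (1.83) and SMO (1.81) followed with adjusted p of 0.256 and 0.0828 from the same limma fit. At the other end were ANLN, an actin-binding protein of cell division, with -1.22, SLC12A2 with -1.12 and PIK3R4, a regulatory subunit of a class III lipid kinase, with -1.01, all with a limma adjusted p above the threshold (0.446, 0.381 and 0.215).

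Among the roles, the median of polysomal minus total RNA with DMSO ran from -0.15 for the lipid members to 0.23 for the glycan members, with -0.05 for receptors, -0.04 for transporters and -0.03 for the endoplasmic reticulum group. The spread within each role was wider than these differences, for example from -0.74 to 1.83 in receptors. The median over members was 0.51 without polysomal DMSO replicate 1 and -0.30 without replicate 2, so its sign rests on the DMSO arrays used. It was also below 0, between -0.17 and -0.01, with quantile normalization or centring on bright clusters.

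**Figure D5:**
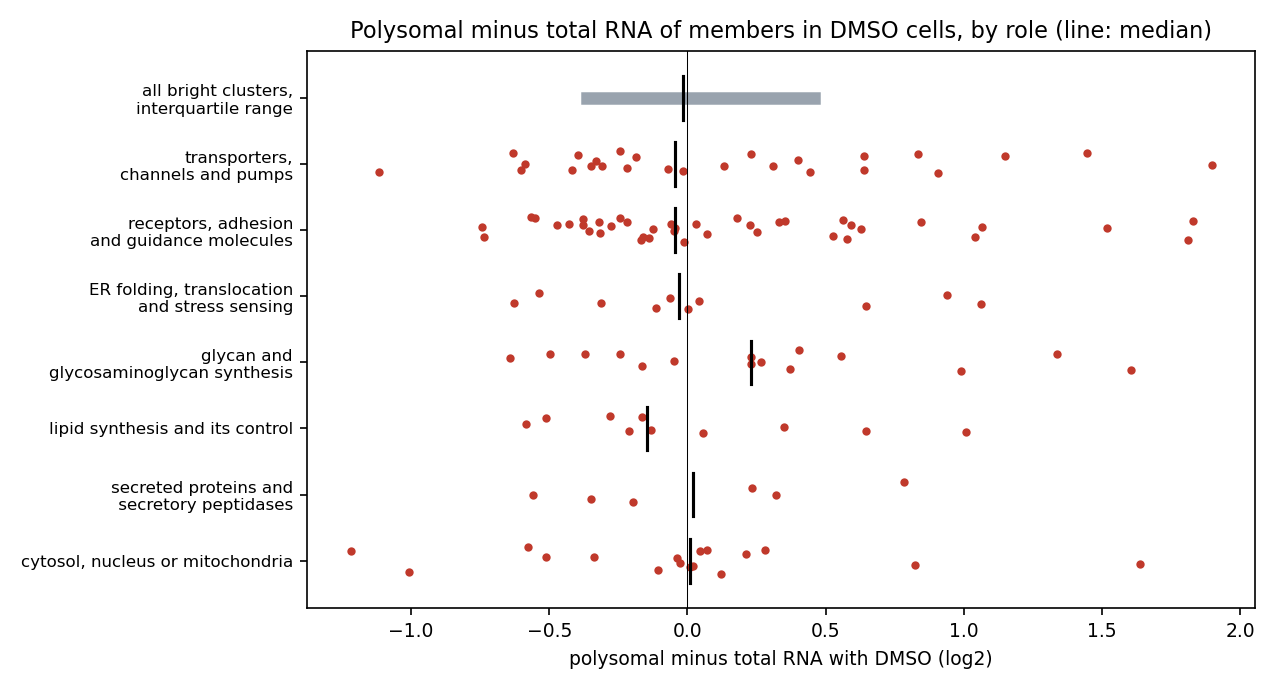
Polysomal minus total RNA with DMSO (log2, means of 2 arrays each) for the members of 7 roles; each point is a member, black lines are medians, and the bar at the top is the interquartile range of the 7808 bright clusters. Role medians lie between -0.15 and 0.23, and single members reach from -1.22 (ANLN) to 1.90 (SLC39A1).

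IFNg against DMSO in polysomal RNA had a median of -0.06 over the members and -0.44 over bright clusters, with members between -1.57 and 1.48. The polysomal IFNg arrays were among those that chose the members, so this is a description. The members' median was 0.38 with quantile normalization over all arrays and 0.48 with centring on bright clusters, the opposite sign. Members at the low end included SCD5, a fatty acid desaturase, with -1.57, TMEM108 with -1.51 and SKP2 with -1.27. In total RNA the rule kept the IFNg difference between -1 and 1, and the members' median was -0.00. Outside that window lay 25 further clusters that met the silvestrol conditions, 14 higher and 11 lower with IFNg, among them SLC7A11, the cystine transporter (-1.25 and -2.30), SDC2, a syndecan (-1.997 and -2.468), and BTN3A1, a butyrophilin (-1.24 and -2.03).

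Members lay on every chromosome covered, from 1.29% of the bright clusters of chromosome 9 to 2.997% of those of chromosome 4. The 148 protein-coding members had a median gene span of 65.1 kb, beside 39.7 kb for the 4048 bright protein-coding clusters. The 16 members with no symbol ranged from -2.08 to -1.05 in total RNA and from -2.79 to -1.04 in polysomal RNA. Another 5 members carry pseudogene symbols that RefSeq does not list. The parents of 2 of them, SEC63 and EFCAB14, were members too, and since a pseudogene and its parent can share probe sequence, SEC63P1 (-1.29 and -1.56) and EFCAB14P1 (-1.46 and -1.09) may not be separate measurements.

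Of 10 melanoma markers, 3 were among the clusters. MITF, the melanocyte master regulator, had a mean log2 of 13.15 and S100A1 of 11.20, while MLANA, a melanosome protein, was at 5.89. EPCAM of epithelial cells (3.91) and PTPRC and CD14 of leukocytes (4.77 and 4.89) lay below the bound of 7, as did both clusters of COL1A2 of fibroblasts (6.53 and 5.50). PDGFRA, in the fibroblast marker list, is a member with a mean of 7.66.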

How the data were processed

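Total and polysome-associated RNA of A375 cells was measured on 12 Affymetrix arrays, per the labels. Each value deposited by the authors is a linear intensity of 1 transcript cluster on 1 array. How they were background-corrected and normalized, and with which software, is not given in the sources, and they come without detection calls. The rows cover chromosomes 1 to 8 and part of chromosome 9. Other chromosomes were not analysed here. No column was left unused (0). The number of arrays limits the precision.

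Samples were grouped by title. Log2 was taken with no pseudocount. The members follow the rule given at the start of the report, and they and all lists were chosen with earlier results of these data known. Tests used limma's lmFit and eBayes (version 3.58.1, R 4.3.3; 1 mean per group over 12 arrays, all 65535 clusters) with Benjamini-Hochberg adjustment and a threshold of 0.05, and the fit was tested on simulated data. Over bright clusters, the median standard error of the DMSO fraction difference was 0.34 on the log2 scale. Figures were drawn with matplotlib 3.10.9.

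Clusters were named from the platform annotation, which can be old, with symbols updated through Entrez identifiers in RefSeq (GRCh38.p14). Of all clusters, 16130 had 1 symbol, 419 several and 48986 none, and clusters with several or none were not named. Genes named by rule were list members among the members, of which there were 0, and the 10 members with the lowest mean silvestrol difference. Other names, roles and families were chosen after their values were seen. Alternatives covered scaling, brightness and fold bounds, the log offset, blocks, variance models, filters and leaving out each array. Counting only clusters of 1 protein-coding gene was chosen after seeing the data.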

Additional observations from a re-analysis of the deposited data

How the results depend on the processing

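The number of members was 178. It lay between 148 and 219 under other scalings, brightness bounds, a log offset, dropping the overlap condition or the window, and counting only clusters of 1 protein-coding gene, and between 158 and 200 without each array in turn. The bound on the fold set it more strongly, with 380 members at 1.5-fold and 43 at 3-fold. The direction of the members' silvestrol difference is set by the rule, and its polysomal median was -1.92 with bright-cluster centring. Without each array in turn it ranged from -1.44 to -1.27 in total RNA and from -1.71 to -1.55 in polysomal RNA, including members chosen on the other replicate. The median of polysomal minus total RNA with DMSO ranged from -0.30 to 0.51 without each DMSO array, and the polysomal IFNg median from -0.41 to 0.23. It was 0.38 and 0.39 with quantile normalization over all arrays and within fractions and 0.48 with bright-cluster centring, against -0.06 as deposited. The cause was not tested.

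The 1 member called for the DMSO fraction difference, SLC39A1, gave 0 calls with quantile normalization over all arrays or within fractions, bright-cluster centring, only the DMSO arrays or an intensity trend with robust variances, and 0 without each of the 12 arrays. It was among 6 calls when only bright clusters were tested, with SDC1, ATG9A, LETM1, NDST1 and SMO, and with SDC1 among 2 calls for clusters at or above the median intensity. With the replicate block it was also 1 of 2 calls, with SDC1. The labels do not say that replicate numbers mark shared cultures. The deviations of same-numbered arrays correlated between -0.19 and 0.57 over bright clusters. IFNg and silvestrol gave 0.57 in total RNA and 0.30 in polysomal RNA. Total and polysomal RNA gave 0.32 with silvestrol, 0.25 with DMSO and 0.08 with IFNg. DMSO and IFNg gave -0.07 in total RNA and -0.09 in polysomal RNA. The main fit did not pair the samples, and whether some of them were handled together was not tested.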
